A study of Mus musculus with 10 samples.

Results

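Neutrophils are short-lived granulocytes that leave the bone marrow under granulocyte colony-stimulating factor (G-CSF), follow CXC chemokines into tissue, and carry ready-made granules of proteases and antimicrobial proteins. They are known for a cytoplasm filled with the calcium-binding proteins S100A8 and S100A9, and in tumors they can act for or against the growth. Several of the genes used to mark them are also made by monocytes, macrophages or mast cells. Here 10 such genes were followed: the receptor genes Csf3r, Cxcr2, Il1r2, Clec4d and Trem1, the calprotectin genes S100a8 and S100a9, and the enzyme genes Mmp8, Hdc and Acod1. They were chosen by symbol, and all 10 were found among the 17737 genes of the count table.

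The data were RNA-seq counts of 10 bulk tumors. B16-F10, a melanoma line of the mouse, was implanted under the skin of the right flank of C57BL/6 animals, and tumors were taken on day 11. In 5 tumors (WT, numbered 2 to 6) the implanted cells overexpressed wild-type IL-18, a cytokine of the IL-1 family, and in the other 5 (D69A, numbered 1 to 5) an IL-18 with alanine in place of the aspartate at position 69. Both groups thus carry an IL-18 transgene, and no tumor without one was analysed here. The labels name no promoter, do not say whether a line was a clone, and do not say whether each tumor came from its own mouse, so the spread behind each p-value may be partly technical. The mice kept their own immune cells.

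Total counts per tumor ran from 25904345 to 37578722, and WT tumor 6 was the shallowest. The melanocyte markers of the implanted line were abundant in every tumor, with 8 markers summing to between 16650 and 20660 CPM (counts per 1000000 library counts, with libraries scaled by TMM) for WT and between 24500 and 31420 CPM for D69A. Il18 counts, which do not separate the wild-type from the mutant form, averaged 29.6 ± 2.56 CPM across WT tumors against 27.3 ± 2.41 CPM across D69A tumors (± SD, 5 tumors each), a difference that did not pass the test (adjusted p = 0.266, edgeR's quasi-likelihood test). WT tumors 3 and 4 and D69A tumor 1 were the highest in skeletal muscle markers, of which 0 of 8 passed the test between the groups, while 5 of the 8 melanocyte markers were higher in D69A tumors. Of all 13798 tested genes 18.8% were higher in D69A tumors by the same test (adjusted p under 0.05). D69A tumor 1 also held more leukocyte RNA than the rest of its group, with 342 CPM over 8 pan-leukocyte genes against 158 to 193 CPM in the other D69A tumors.

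Csf3r, Il1r2, Clec4d, Hdc and Acod1 were lower in D69A than in WT tumors, by 2.12-fold to 7.3-fold. In each of these 5 genes every D69A tumor lay below every WT tumor. Mmp8 was tested and did not pass the threshold (adjusted p under 0.05, edgeR's quasi-likelihood test, Benjamini-Hochberg adjusted over 13798 genes). Cxcr2, Trem1, S100a8 and S100a9 had too few counts to pass the filter on low counts and are given as raw counts. Of all tested genes 24.7% were lower in D69A tumors by the same test, and in 17.4% the groups did not overlap with D69A lower. The 5 genes of 6 tested stand beside those shares as a description, since the genes were chosen with results known. In bulk tissue, fewer cells of a type and less RNA per cell cannot be told apart.

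**Figure D1:**
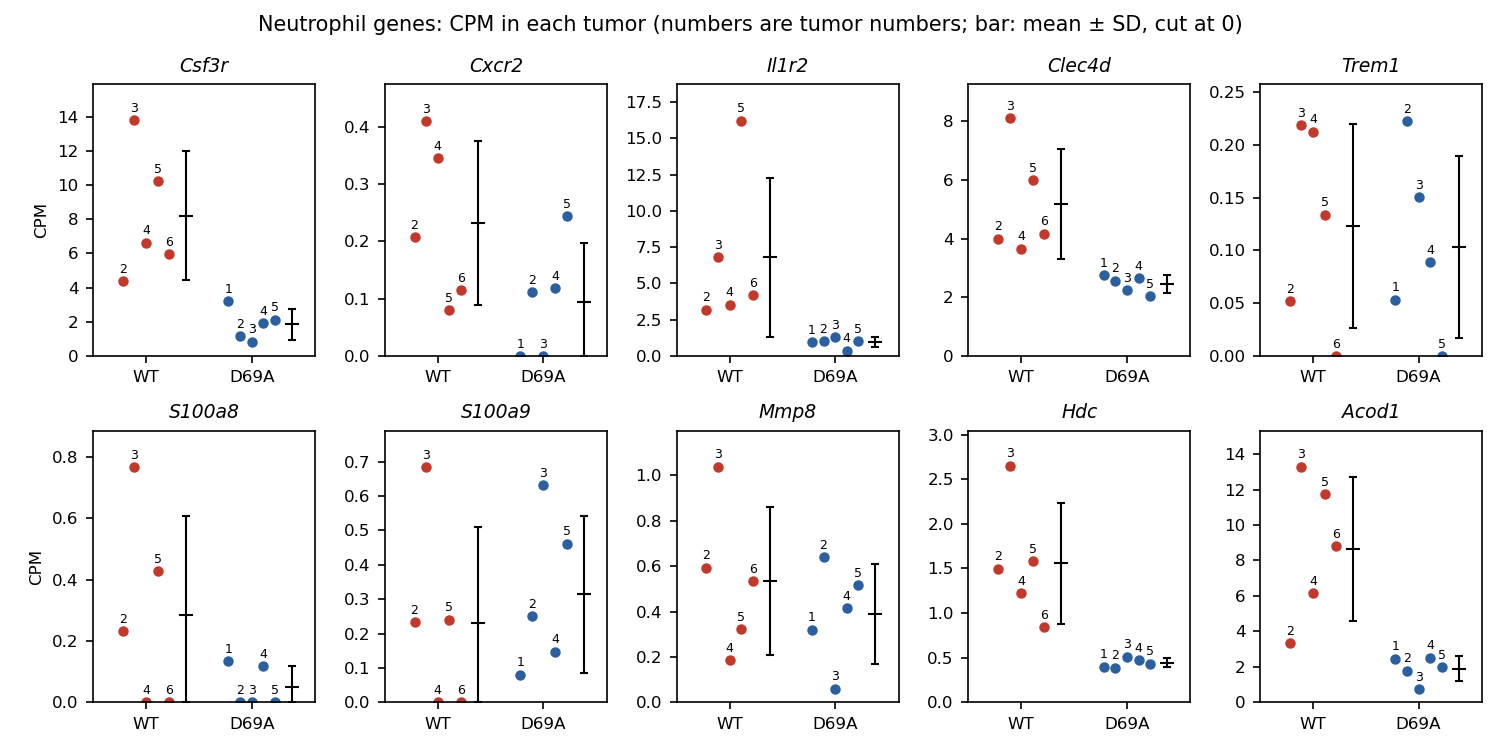
Each panel plots 1 gene, with CPM on the y axis from 0 and the WT and D69A tumors side by side. Points are tumors labelled with their number and the bar is the mean ± SD of 5 tumors. The groups are apart in Csf3r, Il1r2, Clec4d, Hdc and Acod1 and overlap in Cxcr2, Trem1, S100a8, S100a9 and Mmp8, where no tumor exceeds 1.04 CPM.

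Csf3r (ENSMUSG00000028859, chr4:126024550-126044440 in mm10) encodes the receptor for G-CSF, which drives the production and survival of neutrophils and is also carried by monocytes. It stood at 4.39, 13.8, 6.64, 10.25 and 5.97 CPM in WT tumors 2 to 6 and at 3.21, 1.17, 0.84, 1.92 and 2.12 CPM in D69A tumors 1 to 5. The highest D69A tumor, number 1, was still below the lowest WT tumor, number 2. This is a log2 fold change of -2.14 (SE 0.40, 4.42-fold lower, adjusted p = 0.00189 by edgeR's quasi-likelihood test). Csf3, which encodes the ligand G-CSF, was barely counted in either group, with 0 to 5 counts per tumor.

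Cxcr2 (ENSMUSG00000026180, chr1:74153989-74161246) encodes the receptor that guides neutrophils along CXCL1, CXCL2 and CXCL5. It had 8, 15, 13, 3 and 3 counts in WT tumors 2 to 6 and 0, 4, 0, 4 and 9 counts in D69A tumors 1 to 5. The groups overlapped, and the D69A tumors at 0, numbers 1 and 3, allow up to 3 counts, or 0.0802 and 0.0901 CPM (counting error only, as for all such limits below). Fitted without the filter on low counts, where 20.2% of 17697 genes were lower in D69A tumors, its log2 fold change was -1.25 with a 95% interval from -3.16 to 0.65 (adjusted p = 0.288, edgeR's quasi-likelihood test). That value was -0.15 without WT tumors 3 and 4 and D69A tumor 1 and -1.95 without D69A tumor 5, neither past the threshold. A difference in Cxcr2 was thus not detectable at this depth. Its sister receptor gene Cxcr1 had at most 2 counts in any tumor.

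On the ligand side most tested genes were lower in D69A tumors. Of 12 genes fixed for the growth factors, chemokines and IL-1 family ligands that act on neutrophils, 8 were tested and 7 were lower in D69A tumors, with a median log2 fold change of -1.39 against 0.0024 over all tested genes. Cxcl1, a neutrophil attractant, averaged 1.67 ± 0.79 CPM across WT against 0.62 ± 0.23 CPM across D69A tumors (± SD, 5 each; 2.68-fold lower, adjusted p = 0.0139, edgeR's quasi-likelihood test). Tnf, an inflammatory cytokine gene, was 6.19-fold lower, and Il1b, a cytokine gene of activated myeloid cells, 2.37-fold lower (adjusted p = 0.000717 and 0.0108, edgeR's quasi-likelihood test). Il1rn, which encodes the natural IL-1 receptor antagonist, was 2.58-fold lower (adjusted p = 0.00113, the same test). Cxcl2 did not pass the threshold (log2 fold change -0.68, SE 0.49, adjusted p = 0.284).

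Il1r2 (ENSMUSG00000026073, chr1:40074079-40125231) encodes the decoy receptor that binds IL-1 without signalling and is made by neutrophils, by some macrophages and by regulatory T cells of tumors. It stood at 3.18, 6.83, 3.53, 16.2 and 4.21 CPM in WT tumors 2 to 6 and at 0.96, 1.002, 1.29, 0.36 and 1.03 CPM in D69A tumors 1 to 5. WT tumor 5 was far above the rest of its group and all D69A tumors lay below all WT tumors. In log2 terms the change was -2.87 (SE 0.51, 7.3-fold lower, adjusted p = 0.00152 by edgeR's quasi-likelihood test), and -2.21 without WT tumor 5. The signalling receptor gene Il1r1 was 4.28-fold lower (adjusted p = 0.00128), whereas Il1rap, which encodes the shared accessory chain, did not pass the threshold (log2 fold change 0.13, SE 0.09, adjusted p = 0.25, the same test).

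Clec4d (ENSMUSG00000030144, chr6:123262111-123275265) encodes a C-type lectin of neutrophils, monocytes and macrophages that senses microbial glycolipids and signals through an Fc receptor chain and the kinase SYK. It stood at 4.00, 8.12, 3.67, 6.00 and 4.17 CPM in WT tumors 2 to 6 and at 2.75, 2.56, 2.25, 2.66 and 2.04 CPM in D69A tumors 1 to 5. The D69A tumors were close to each other and all below the lowest WT tumor, number 4. With a log2 fold change of -1.08 (SE 0.23, 2.12-fold lower, adjusted p = 0.00399 by edgeR's quasi-likelihood test), Clec4d had the smallest of the 5 decreases. Clec4e, the neighboring lectin gene, was 2.13-fold lower and Fcer1g, the chain that both lectins use, 3.53-fold lower (adjusted p = 0.035 and 0.000631).

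Trem1 (ENSMUSG00000042265, chr17:48232768-48246924) encodes a receptor that amplifies inflammatory signals in neutrophils and monocytes through the adaptor DAP12. It had 2, 8, 8, 5 and 0 counts in WT tumors 2 to 6 and 2, 8, 5, 3 and 0 counts in D69A tumors 1 to 5. The counts of the groups covered the same span, and the 95% interval of the log2 fold change, from -2.20 to 1.65 without the filter on low counts, is wide on both sides of 0 (adjusted p = 0.833, edgeR's quasi-likelihood test). Tyrobp, which encodes DAP12 and is expressed across myeloid cells and natural killer cells, was well measured and 3.74-fold lower in D69A tumors (adjusted p = 0.000671, the same test). Of the 12 genes fixed as signalling partners of the 10, 11 were tested and 7 were lower, and the median log2 fold change was -1.06. The 4 that did not pass were Tlr4, Ager, Il1rap and Stat3, of which Tlr4 and Ager encode receptors for S100A8 and S100A9.

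S100a8 (ENSMUSG00000056054, chr3:90668978-90670035) and S100a9 (ENSMUSG00000056071, chr3:90692632-90695721) encode the subunits of calprotectin, which is among the most abundant proteins of the neutrophil cytoplasm. S100a8 had 9, 28, 0, 16 and 0 counts in WT tumors 2 to 6 and 5, 0, 0, 4 and 0 counts in D69A tumors 1 to 5. S100a9 had 9, 25, 0, 9 and 0 counts in WT tumors 2 to 6 and 3, 9, 21, 5 and 17 counts in D69A tumors 1 to 5. WT tumors 4 and 6 were at 0 in both genes, which allows up to 0.0797 and 0.115 CPM, and D69A tumors 3 and 5 were at 0 in S100a8 while they were the highest of their group in S100a9. The subunit genes thus did not run together across the D69A tumors.

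Neither calprotectin gene passed the test when the filter on low counts was left out. The log2 fold change was -2.40 for S100a8 (95% interval -5.18 to 0.38, adjusted p = 0.169, edgeR's quasi-likelihood test) and 0.42 for S100a9 (-1.64 to 2.49, adjusted p = 0.754, the same test). WT tumor 3 weighs on both, since without it the values were -1.66 for S100a8 and 1.32 for S100a9, again not past the threshold. The summed counts were 53 in WT and 9 in D69A tumors for S100a8, and 43 in WT and 55 in D69A tumors for S100a9. Keratinocytes can also make these genes, and few keratinocyte counts were seen. Of 11 such markers 7 were in the table and summed to between 2.87 and 4.1 CPM in WT and between 1.5 and 1.92 CPM in D69A tumors. The basal marker Krt5 and the suprabasal marker Krt1 had at most 3 counts in a tumor, while Krt17 had 6 to 44 counts in WT and 0 in D69A tumors. Sfn and Perp, the 2 that were tested, were counted in every tumor. Sfn had 44 to 83 counts in WT and 37 to 47 in D69A tumors, and Perp 14 to 37 and 8 to 20. Neither passed (adjusted p = 0.157 and 0.14, edgeR's quasi-likelihood test). The part of these cells in the calprotectin counts was not tested.

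Mmp8 (ENSMUSG00000005800, chr9:7558456-7568485) encodes neutrophil collagenase, a protease stored in granules. It had 23, 38, 7, 12 and 14 counts in WT tumors 2 to 6 and 12, 23, 2, 14 and 19 counts in D69A tumors 1 to 5. The groups overlapped, with WT tumor 3 the highest and D69A tumor 3 the lowest. Mean levels were 0.54 ± 0.33 CPM for WT and 0.39 ± 0.22 CPM for D69A (± SD, 5 tumors each). Its log2 fold change of -0.45 (SE 0.56, 95% interval -1.67 to 0.78) did not pass the threshold (adjusted p = 0.543, edgeR's quasi-likelihood test).

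Other granule genes ranged from abundant to barely counted. Of 14 fixed, 12 were in the table and 5 were tested, of which 4 were lower in D69A tumors. Lyz2, the lysozyme gene of macrophages and neutrophils alike, averaged 491.3 ± 248.2 CPM across WT against 178.6 ± 32.3 CPM across D69A tumors (± SD, 5 each; 2.75-fold lower, adjusted p = 0.00362, edgeR's quasi-likelihood test). Pglyrp1, a peptidoglycan-binding granule protein gene, was 5.11-fold lower, Mmp9, the gelatinase gene, 3.24-fold and Cd177, a neutrophil surface and granule glycoprotein gene, 3.49-fold (adjusted p = 0.00225, 0.0153 and 0.0445). Cd177 had 12 to 56 counts in WT and 0 to 15 in D69A tumors. Its call was lost without the filter on low counts (adjusted p = 0.0632, edgeR's quasi-likelihood test). By contrast Mpo, Elane, Ngp and Olfm4, which encode proteins of immature or maturing neutrophil granules, stayed under 10 counts in every tumor, and Ltf had 16 counts in WT tumor 5 and 0 elsewhere.

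For a view of the regulatory sequence, RefSeq promoters (build GRCm38.p6) were found for all 10 genes. The 250 bases before the RefSeq start, which can differ from the gene start given above, were searched on both strands for TTGCNNAA (C/EBP factors, which drive granule genes), GAGGAAGT (PU.1, a myeloid master factor), TTCNNNGAA (STAT factors, which act below the G-CSF receptor) and GAAA, any 2 bases, GAAA (interferon regulatory factors). Among 32851 promoters of the same length these letters occurred in 9.56%, 2.44%, 7.02% and 2.98%. C/EBP letters were found in S100a9 and Mmp8, PU.1 letters in S100a8 and Mmp8, and STAT letters in Il1r2 and Trem1, and 5 genes held none of the 4 motifs. Mmp8 and S100a9, which did not pass the test, are shown because they hold the C/EBP letters, and Clec4d because it was lower in D69A tumors and holds none of the motifs. Matches are in capitals, and a match describes letters, not a bound site. The Mmp8 stretch is chr9:7558179-7558428 on the plus strand, with PU.1 letters 221 to 214 and C/EBP letters 19 to 12 bases before the start. The S100a9 stretch is chr3:90695722-90695971 on the minus strand, with C/EBP letters 236 to 229 bases before the start. The Clec4d stretch is chr6:123261857-123262106 on the plus strand.
Mmp8: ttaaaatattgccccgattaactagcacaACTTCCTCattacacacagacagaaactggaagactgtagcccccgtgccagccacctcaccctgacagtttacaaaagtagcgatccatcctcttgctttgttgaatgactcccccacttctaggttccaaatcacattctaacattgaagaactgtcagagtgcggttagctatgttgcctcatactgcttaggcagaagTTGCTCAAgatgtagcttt
S100a9: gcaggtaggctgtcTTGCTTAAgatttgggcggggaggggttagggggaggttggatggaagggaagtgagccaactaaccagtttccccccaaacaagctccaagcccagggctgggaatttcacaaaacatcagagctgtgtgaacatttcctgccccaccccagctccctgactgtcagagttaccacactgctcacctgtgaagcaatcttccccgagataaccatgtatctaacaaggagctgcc
Clec4d: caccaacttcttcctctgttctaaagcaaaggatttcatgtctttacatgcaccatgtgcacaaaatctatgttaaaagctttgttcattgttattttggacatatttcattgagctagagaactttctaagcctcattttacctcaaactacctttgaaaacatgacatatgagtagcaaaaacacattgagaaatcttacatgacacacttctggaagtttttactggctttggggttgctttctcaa

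Hdc (ENSMUSG00000027360, chr2:126593667-126619299) encodes histidine decarboxylase, which makes histamine in mast cells and basophils and is also expressed in neutrophils and immature myeloid cells. It stood at 1.498, 2.65, 1.22, 1.58 and 0.84 CPM in WT tumors 2 to 6 and at 0.40, 0.39, 0.51, 0.47 and 0.43 CPM in D69A tumors 1 to 5. The D69A tumors lay in a narrow band, from 14 to 17 counts each, below every WT tumor. Hdc had a log2 fold change of -1.82 (SE 0.31, 3.52-fold lower, adjusted p = 0.00127 by edgeR's quasi-likelihood test).

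Most tested mast cell genes were, like Hdc, lower in D69A tumors. Of 11 mast cell and basophil markers 5 were tested and 4 were lower in D69A tumors. The other tested marker, the transcription factor gene Gata2, went the other way and did not pass (log2 fold change 0.40, SE 0.17, adjusted p = 0.0714, edgeR's quasi-likelihood test). Cpa3, a mast cell protease gene, averaged 0.99 ± 0.66 CPM across WT against 0.11 ± 0.12 CPM across D69A tumors (± SD, 5 each; 8.57-fold lower, adjusted p = 0.0101, edgeR's quasi-likelihood test). The mast cell protease genes Mcpt4, Cma1 and Tpsb2 were 7.89-fold, 6.41-fold and 4.19-fold lower (adjusted p = 0.0133, 0.0293 and 0.027, the same test), and Tpsb2 can share reads with its near copy Tpsab1. Gata2 made up most of the list's sum, which lay between 20.9 and 27.7 CPM in WT and between 22.0 and 26.8 CPM in D69A tumors. Without Gata2 the other 10 markers summed to between 1.89 and 11.8 CPM in WT and between 0.31 and 1.76 CPM in D69A tumors. The IgE receptor genes Ms4a2 and Fcer1a were at 0 in all D69A tumors and had at most 5 counts in a WT tumor. The basophil markers Mcpt8 and Prss34 were at 0 in all D69A tumors and at 0 in all WT tumors but 1 each. The part of mast cells in the Hdc level was not tested.

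Acod1 (ENSMUSG00000022126, chr14:103046977-103056573) encodes the mitochondrial enzyme that makes itaconate and is induced in activated macrophages and neutrophils. It stood at 3.33, 13.3, 6.16, 11.7 and 8.80 CPM in WT tumors 2 to 6 and at 2.46, 1.78, 0.75, 2.52 and 1.98 CPM in D69A tumors 1 to 5. WT tumor 2 was the nearest to the D69A tumors, which all lay below it. For Acod1 the log2 fold change was -2.19 (SE 0.40, 4.55-fold lower, adjusted p = 0.00179 by edgeR's quasi-likelihood test).

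Macrophage and monocyte markers, which mark cells that also express Acod1, Clec4d, Trem1 and Il1r2, fell in 11 of 12 cases with a median log2 fold change of -1.70. Fcgr1, a high-affinity Fc receptor gene, was 4.19-fold lower, Ly6c2, a monocyte gene, 6.31-fold, Ccr2, a monocyte chemokine receptor gene, 3.95-fold and C1qa, a complement gene of macrophages, 3.55-fold (adjusted p = 0.000472, 0.000472, 0.00117 and 0.00148 by edgeR's quasi-likelihood test). Cd68, also made by many cells with lysosomes, did not pass (adjusted p = 0.454). The list summed to between 704.2 and 1597 CPM in WT and between 424.9 and 664.2 CPM in D69A tumors, and none of its markers was at 0. The part of macrophages and monocytes in the levels of the 4 genes was not tested.

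Per length of exon, 4 of the 10 genes held the highest levels in WT tumors. Il1r2 stood at 3.56 ± 2.86 CPM per kb of exon, Acod1 at 3.30 ± 1.54, Clec4d at 3.25 ± 1.17 and Csf3r at 2.28 ± 1.05 (± SD over 5 tumors). The SDs are spreads between tumors. All genes were measured in the same tumors, and differences between genes within a tumor were not tested. The calprotectin genes followed at 0.44 ± 0.53 for S100a9 and 0.41 ± 0.46 CPM per kb for S100a8. Hdc at 0.24 ± 0.11 and Mmp8 at 0.22 ± 0.13 CPM per kb came next, and Cxcr2 at 0.076 ± 0.047 and Trem1 at 0.041 ± 0.032 CPM per kb were the lowest. In D69A tumors Clec4d led at 1.53 ± 0.19 CPM per kb, ahead of Acod1 at 0.72 ± 0.27, S100a9 at 0.60 ± 0.44, Csf3r at 0.51 ± 0.26 and Il1r2 at 0.49 ± 0.18, which overlapped each other. A total of 8 of the 10 genes had their highest CPM in WT tumor 3, Il1r2 had it in WT tumor 5 and Trem1 in D69A tumor 2.

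WT tumors 3 and 5 were also the richest in leukocyte RNA. The 8 pan-leukocyte genes, which are expressed across blood cell lineages and include Ptprc for CD45, had 42965 and 43692 counts there, against 16776 to 25841 in the other WT tumors and 5260 to 12794 in D69A tumors. All 8 were lower in D69A tumors, with a median log2 fold change of -2.09, Ptprc by 4.69-fold (adjusted p = 0.00096, edgeR's quasi-likelihood test). The 10 genes were therefore also scaled to these counts in place of library size. On that scale the median log2 fold change of all tested genes moves from 0.0024 to 1.89, since the yardstick itself is lower in D69A tumors, and 84% of tested genes are higher and 2.05% lower in D69A tumors.

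Relative to pan-leukocyte counts, Csf3r, Il1r2, Hdc and Acod1 did not pass the threshold. Csf3r had 9.53, 11.8, 9.68, 8.77 and 9.30 counts per 1000 pan-leukocyte counts in WT tumors 2 to 6 and 9.38, 6.07, 5.32, 10.6 and 11.9 in D69A tumors 1 to 5, so the groups overlapped. Its log2 fold change on this scale was -0.18 (95% interval -0.79 to 0.44, adjusted p = 0.587, edgeR's quasi-likelihood test). The intervals were -0.80 to 0.50 for Acod1, -0.64 to 1.01 for Hdc and -1.47 to 0.08 for Il1r2 (adjusted p = 0.662, 0.677 and 0.0879, the same test), so differences of up to those sizes remain possible. Without D69A tumor 3, Il1r2 passed as lower (log2 fold change -0.96, adjusted p = 0.0277).

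Clec4d and Mmp8 were higher in D69A tumors on this scale, both by less than the median of all genes. Clec4d had 8.69, 6.91, 5.34, 5.13 and 6.50 counts per 1000 pan-leukocyte counts in WT tumors 2 to 6 and 8.05, 13.3, 14.3, 14.7 and 11.4 in D69A tumors 1 to 5. Only D69A tumor 1 lay within the WT span. The log2 fold change was 0.92 (SE 0.30, adjusted p = 0.00539, edgeR's quasi-likelihood test). Mmp8 came to 0.71 ± 0.44 per 1000 in WT and 1.97 ± 1.26 per 1000 in D69A tumors (± SD over 5 tumors). With a log2 fold change of 1.49 (SE 0.53) it passed (adjusted p = 0.0116, the same test), and lost the call without D69A tumor 2 (adjusted p = 0.057). With macrophage and monocyte counts as the yardstick neither passed (adjusted p = 0.64 for Clec4d and 0.17 for Mmp8), while Csf3r, Il1r2 and Acod1 passed as lower with log2 fold changes of -0.94, -1.50 and -0.93 (adjusted p = 0.00444, 0.000562 and 0.00628, the same test). That yardstick includes Cd68, which did not pass the test between the groups and was a large part of it for D69A. There Cd68 averaged 206.8 CPM, while the whole list came to 424.9 to 664.2 CPM per tumor. The WT mean of Cd68 was 191.5 CPM, beside list sums from 704.2 up to 1597 CPM. The share of all genes that passed with this yardstick is not given here, so these calls cannot be set against a background.

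Among the 4 genes with few counts, S100a9 passed as higher on the leukocyte scale when the filter on low counts was left out, where 67.4% of genes were higher and 1.91% lower in D69A tumors. It had 0.50, 0.58, 0, 0.21 and 0 counts per 1000 pan-leukocyte counts in WT tumors 2 to 6 and 0.23, 1.30, 3.99, 0.82 and 2.60 in D69A tumors 1 to 5. D69A tumor 1 lay within the WT span and the other D69A tumors above it. The log2 fold change of 2.67 (SE 0.76, adjusted p = 0.00206, edgeR's quasi-likelihood test) rests on 43 counts in WT and 55 in D69A tumors. S100a8, Cxcr2 and Trem1 did not pass in that fit (adjusted p = 0.684, 0.48 and 0.0792).

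**Figure D2:**
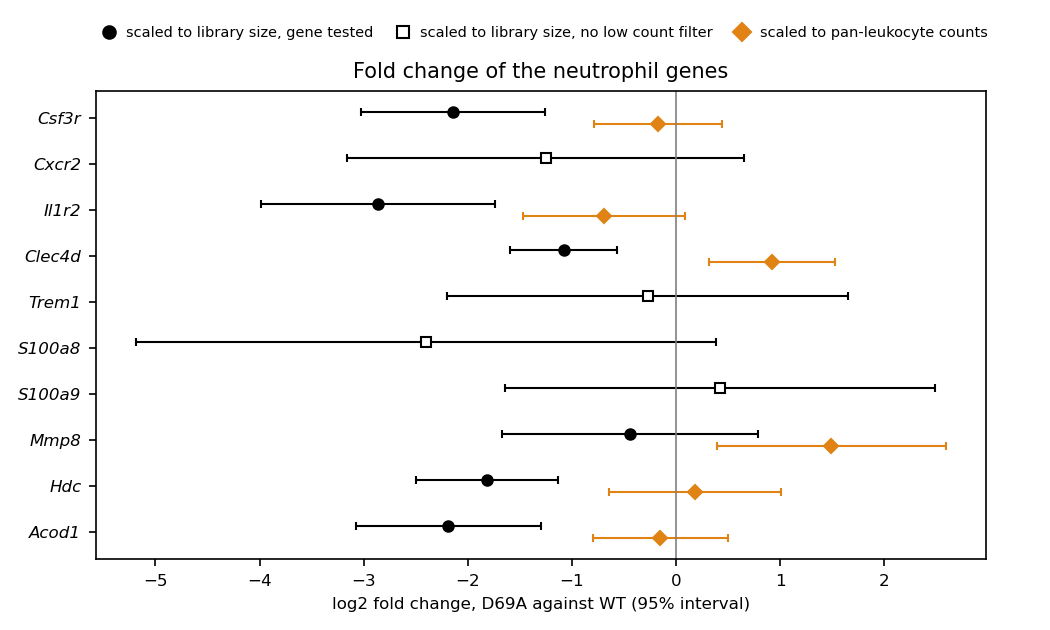
The x axis gives the log2 fold change (D69A over WT) with its 95% interval, and each line is 1 gene. Black circles are tested genes and open squares genes fitted without the low count filter, both scaled to library size, and orange diamonds are scaled to pan-leukocyte counts. The black intervals of Csf3r, Il1r2, Clec4d, Hdc and Acod1 lie below 0, and on the leukocyte scale those of Clec4d and Mmp8 lie above 0.

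**Figure D3:**
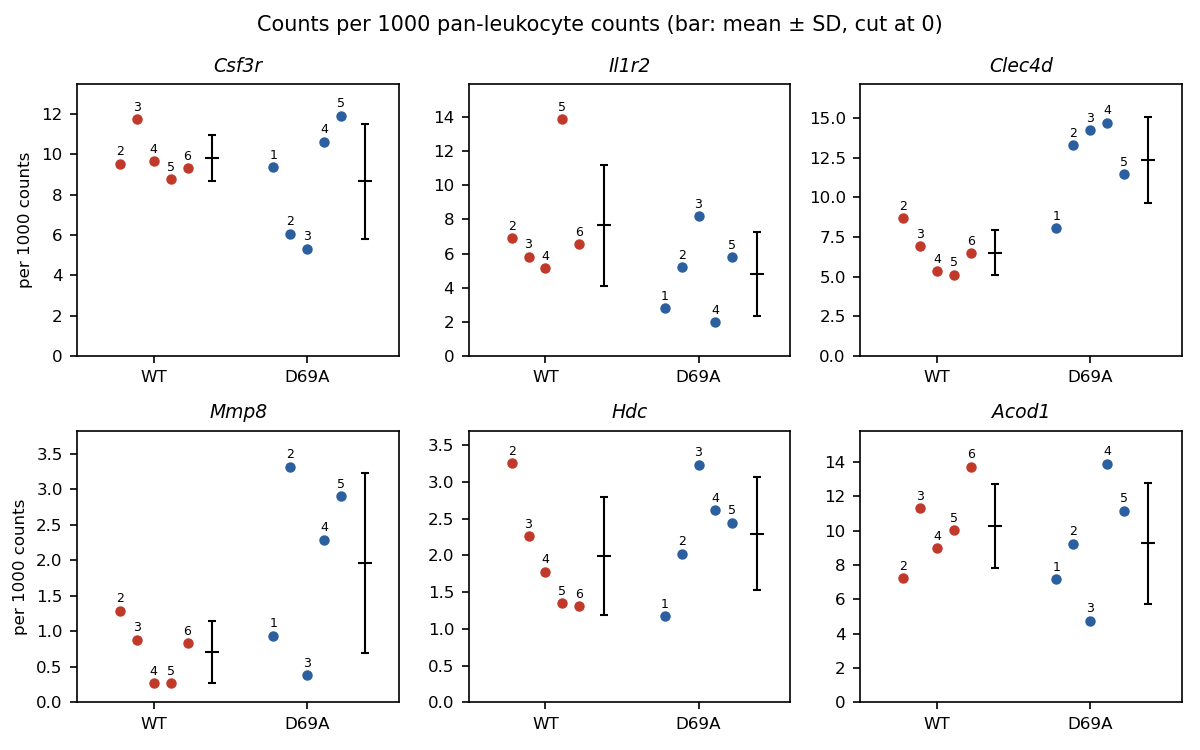
The y axis gives counts per 1000 pan-leukocyte counts from 0 for the 6 tested genes, with tumors as numbered points and the mean ± SD of 5 tumors as a bar. WT and D69A tumors overlap in all panels, and in Clec4d only D69A tumor 1 reaches into the WT span.

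Genes of neutrophil effector function and development outside the 10 were lower too, and most are shared with monocytes and macrophages. All 6 genes of the phagocyte NADPH oxidase, the enzyme of the respiratory burst, were lower in D69A tumors, with a median log2 fold change of -2.08. Among them Cyba, a membrane subunit gene, was 4.03-fold lower, Ncf1 and Ncf4, which encode cytosolic subunits, 4.43-fold and 4.46-fold, and the GTPase gene Rac2 4.56-fold (adjusted p = 0.000546, 0.000711, 0.000848 and 0.000853 by edgeR's quasi-likelihood test). D69A tumor 1 was apart here as well, at 117 CPM for the 6 genes against 52.4 to 67.5 CPM in the other D69A tumors. Of 12 surface receptor and mature neutrophil genes 11 were in the table, 10 were tested and 9 were lower, with a median of -1.58. The integrin gene Itgam was 2.66-fold lower, the formyl peptide receptor gene Fpr2 4.00-fold and Lrg1, a secreted glycoprotein gene, 3.74-fold (adjusted p = 0.00154, 0.00527 and 0.00747, the same test). The Itgam count is uncertain, as 68.7% of its exon bases overlap the gene model Gm49368 on the same strand. Retnlg, a gene of mature mouse neutrophils, had 9 to 45 counts in WT and 3 to 12 counts in D69A tumors (log2 fold change -1.48, SE 0.45, adjusted p = 0.0219).

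Transcription factor genes of the granulocyte lineage were lower in 4 of 5 tested cases out of 6. Spi1, which encodes PU.1, was 4.26-fold lower, Cebpa 2.96-fold, Cebpd 2.12-fold and Gfi1, which encodes a transcriptional repressor needed for neutrophil development, 4.49-fold (adjusted p = 0.000856, 0.000906, 0.000507 and 0.0212 by edgeR's quasi-likelihood test). Cebpd shares 15% of its exon bases with Spidr on the opposite strand, and counts without strand would not tell them apart. Cebpb did not pass (adjusted p = 0.234), and Cebpe, the factor of late granule genes, had at most 15 counts in a tumor and was not tested. Of 5 markers of eosinophils, another granulocyte class, Ccr3 and Siglecf were tested and were 3.63-fold and 3.99-fold lower (adjusted p = 0.00794 and 0.021, the same test). Epx, which encodes eosinophil peroxidase, had at most 9 counts. The list summed to between 1.49 and 3.09 CPM in WT and between 0.15 and 0.89 CPM in D69A tumors. Among erythroid markers, a sign of blood in the tissue, 0 of 5 tested passed, and their sum ran from 116 to 166 CPM in WT and from 47.4 to 340 CPM in D69A tumors.

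**Figure D4:**
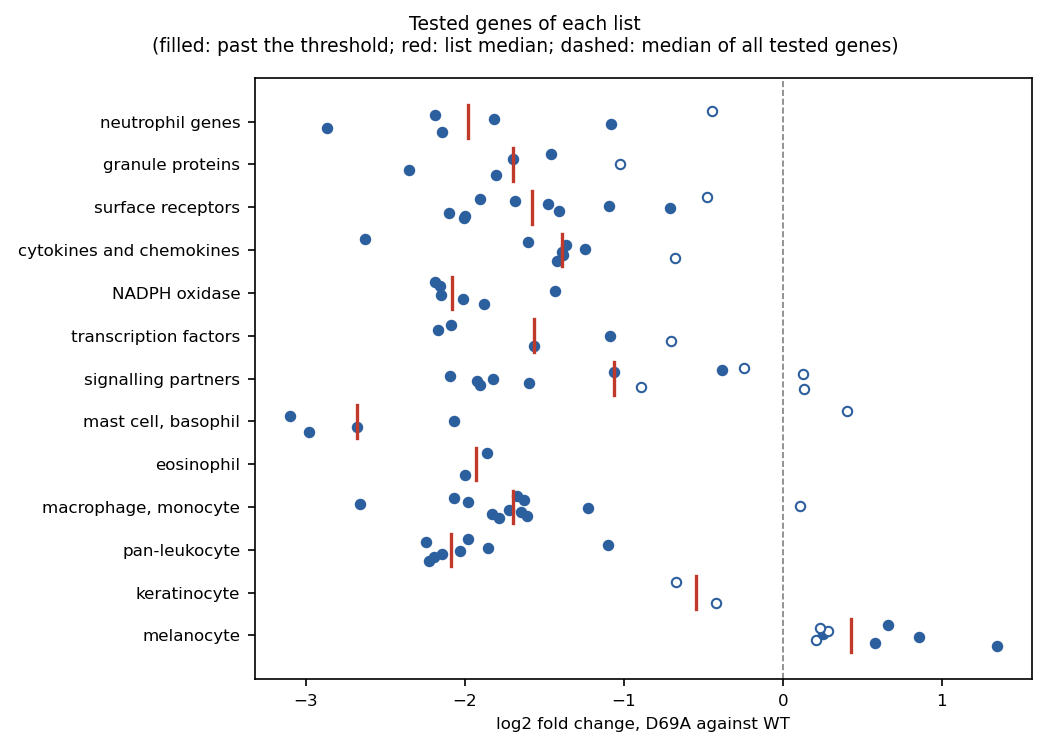
The x axis gives log2 fold changes (D69A over WT) of tested genes, with 1 row per gene list shown. The muscle and erythroid lists are not drawn. Their medians were -2.03, with 0 of 8 muscle genes past the threshold, and 0.33, with 0 of 5 erythroid genes past it. Filled points passed the threshold, open points did not, red lines are list medians and the dashed line is the median of all tested genes, 0.0024. Medians of the neutrophil and leukocyte lists lie between -2.68 (mast cell and basophil) and -1.06 (signalling partners), and that of the melanocyte list is 0.43.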

How the data were processed

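The deposited table held whole-number read counts per Ensembl gene for 10 tumors, with no scaling applied. Tools named in the submitters' processing notes are fastp, HISAT, Bowtie and RSEM, with the build mm10. Not given in the sources used here are their roles and versions, the annotation and whether strand was used. RSEM gives estimates, so the deposited counts can be rounded. Symbols and coordinates came from GENCODE mouse release M21, and no exon of the 10 genes overlaps another annotated gene. The smallest chi-square per degree of freedom between 2 tumors of a group was 13.85, so no library was counted as deposited again.

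Genes were filtered with edgeR's filterByExpr by group (13798 of 17737 kept), scaled by TMM and compared by the quasi-likelihood test (edgeR 4.0.16, R 4.3.3). SEs and 95% intervals were derived from the F statistic. For the leukocyte scale, the summed counts of 8 pan-leukocyte genes replaced library size. A floor of 3 counts came to between 0.0775 and 0.115 CPM. On simulated counts the test recovered 10.2% of 1.25-fold, 49.0% of 1.5-fold, 76% of 2-fold and 93.9% of 4-fold changes. Of its calls there 6.61% were unchanged genes. The simulation changed 200 of 13693 genes, far fewer than the 6004 that passed in the data, so these rates may not hold for the tumors. Alternatives were DESeq2 1.42.0, limma-voom (limma 3.58.1), other scalings, filters, yardsticks and thresholds, a replicate block, and leaving out 1 tumor at a time. A fit without WT tumors 3 and 4 and D69A tumor 1, highest in muscle markers, was chosen after seeing the data.

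The 10 genes and the 14 other lists were chosen with earlier results of these data known. Named are the 10 genes, Il18, Ptprc and up to 4 genes per list with the smallest p. A gene this rule selects is not reported here. Named after their values were seen are Cxcr1, Csf3, Cxcl2, Clec4e, Il1rap, Mpo, Elane, Ngp, Olfm4, Ltf, Retnlg, Tlr4, Ager, Stat3, Cebpb, Cebpe, Gata2, Ms4a2, Fcer1a, Tpsab1, Mcpt8, Prss34, Cd68, Epx, Krt1, Krt5 and Krt17. Ly6g, Camp and Ctsg were fixed in the lists but were not found by symbol in the count table, so they have no values here.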

Additional observations from a re-analysis of the deposited data

Results flagged for a closer look

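The tumors below lay far from the rest of their group: the distance to the next tumor was more than 0.71 of the group's range. This was so in 7 of 48 groups of values examined, the 10 genes and the 14 list sums in WT and D69A (14.6%). By chance about 1 in 20 would be, were the values normal and independent, and values of 1 tumor vary together.

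WT tumor 5 had 16.2 CPM of Il1r2, against 3.18 to 6.83 CPM in the other WT tumors. WT tumor 3 had 3.09 CPM over the eosinophil markers, against 1.49 to 1.93 CPM in the other WT tumors. D69A tumor 1 was apart in 4 sums. It had 117 CPM of the NADPH oxidase genes, 664 CPM of the macrophage and monocyte markers against 425 to 464 CPM, 342 CPM of the pan-leukocyte genes, and 479 CPM of the muscle markers against 3.8 to 92.1 CPM in the other D69A tumors. D69A tumor 3 had 420 CPM of the signalling partner genes, against 394 to 401 CPM. Without D69A tumor 1 the same 5 genes were lower, each with an unchanged call.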

How the results depend on the processing

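The count of 5 genes lower in D69A tumors held in all 20 alternatives, and each of the 5 kept its direction and call in the 19 run per gene, with adjusted p up to 0.0258 (Clec4d). Log2 fold changes ranged from -2.46 to -1.87 for Csf3r, -3.09 to -2.21 for Il1r2, -1.18 to -0.85 for Clec4d, -1.97 to -1.53 for Hdc and -2.39 to -1.94 for Acod1. Mmp8 never passed. Over all genes 6004 passed, 3651 at an adjusted p of 0.01, 4966 to 6460 with 1 tumor left out, and 4342 without WT tumors 3 and 4 and D69A tumor 1 (those richest in muscle RNA).

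Without the low count filter, values with 1 tumor left out ranged from -3.15 to -1.66 for S100a8, 0.07 to 1.32 for S100a9 and -1.95 to -0.90 for Cxcr2 (-0.15 without the 3 muscle-rich tumors), none past the threshold. Trem1 changed sign without WT tumor 3 or 4 or D69A tumor 5 (0.002, 0.004 and 0.043, range with 1 tumor left out -0.765 to 0.043) and without all 3 of the muscle-rich tumors (0.812). On the leukocyte scale 2 genes were higher, 0 with the macrophage and monocyte yardstick, 3 without the low count filter (S100a9 added), and 1 to 2 with 1 tumor left out. Changes of sign there were Csf3r (0.102) and Acod1 (0.128) with Ptprc as the yardstick, Hdc (-0.61) with macrophage and monocyte counts, and Acod1 with the replicate block (0.004) and without D69A tumor 3 (0.011, range with 1 tumor left out -0.341 to 0.011), none past the threshold. The cause was not tested.

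WT and D69A tumors share the numbers 2 to 5 without a stated pairing. Deviations of same-numbered tumors correlated at 0.177, -0.417, 0.203 and 0.167, so the numbers were not taken to pair them. With the replicate number as a block 5464 genes passed and the count of 5 held. Depth limits Cxcr2, Trem1, S100a8 and S100a9.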
